A study of Mus musculus with 10 samples.

Results

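The genes described here are the G1 cyclins Ccnd1, Ccnd2, Ccnd3, Ccne1 and Ccne2 and the inhibitors of cyclin-dependent kinases (CDKs) Cdkn1a, Cdkn1b, Cdkn1c, Cdkn2a and Cdkn2b. They were taken by gene symbol, and all 10 were found among the 49671 genes of the deposited table. All 10 also passed the filter on low values, which kept the 21995 genes that reached 10 in 2 or more libraries. The study sequenced polyA RNA from sorted SmoM2-YFP-expressing cells of mouse skin epidermis, to study Survivin, the product of Birc5, in basal cell carcinoma. SmoM2 is a constitutively active form of Smoothened, the signal transducer of the Hedgehog pathway, and YFP marks the cells that carry it.

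Every group carried Rosa-SmoM2 and a tamoxifen-dependent Cre recombinase (CREER), and each held 2 libraries. Krt14-CREER, under the promoter of a basal keratin gene, drove SmoM2 in the Krt14-CREER/Rosa-SmoM2 libraries at 6 weeks and at 8 weeks. The same Cre drove it at 6 weeks together with a loss-of-function allele of Survivin in the group called LOF below (Krt14-CREER/Rosa-SmoM2/Survivin LOF). Inv-CREER, named for involucrin, a protein of suprabasal keratinocytes, drove SmoM2 in the Inv controls at 8 weeks, and with Krt14rtTA and a gain of function of Survivin in the group called GOF (Inv-CREER/Rosa-SmoM2/Krt14rtTA/Survivin-GOF, 8 weeks). The weeks are those given with TAM, read here as tamoxifen. Krt14rtTA is named for the GOF group alone, so its part and that of Survivin cannot be told apart. Both Inv control libraries are described as pools, without saying of what, and nothing in the labels says that the libraries of a group came from separate animals, so p-values measure only the spread between libraries. Age, sex and strain are not stated in the labels.

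D-type cyclins bind CDK4 and CDK6, and E-type cyclins bind CDK2. The active kinases phosphorylate the retinoblastoma (RB) family of pocket proteins, which releases E2F transcription factors and lets a cell pass from G1 into S phase. Inhibitors of separate families oppose them: the INK4 proteins bind CDK4 and CDK6 themselves, whereas the CIP/KIP proteins bind whole cyclin-CDK complexes. In the epidermis, exit from the cycle accompanies the move of keratinocytes from the basal to the suprabasal layers, and Hedgehog signalling is known to induce Ccnd1 and Ccnd2 in several tissues.

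Sequence upstream of a transcription start was at hand for 6 of the 10 genes, in 9 windows from RefSeq on GRCm38.p6. The windows of Ccne1 and Cdkn2a, and that of the upstream Cdkn1a start, are shown because the results below turn on these genes. Cdkn2a also has separate starts for its p16Ink4a and p19Arf transcripts, which a single row of the table sums. Each run reads 5′ to 3′ on the gene's strand and ends at the last base before the gene's first annotated exon base in that window. Capitals mark a motif match.
Ccne1, chr7:38107535-38107740, minus strand: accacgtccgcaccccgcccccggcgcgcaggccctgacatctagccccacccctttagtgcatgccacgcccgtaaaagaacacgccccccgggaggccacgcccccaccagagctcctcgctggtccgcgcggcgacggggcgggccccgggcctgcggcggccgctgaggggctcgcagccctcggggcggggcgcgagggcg
Cdkn1a, chr17:29090729-29090975, plus strand: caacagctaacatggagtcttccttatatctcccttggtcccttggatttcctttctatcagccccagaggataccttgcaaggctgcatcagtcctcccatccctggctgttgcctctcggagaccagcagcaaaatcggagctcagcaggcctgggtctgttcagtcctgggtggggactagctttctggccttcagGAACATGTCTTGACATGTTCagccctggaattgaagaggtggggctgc
Cdkn2a, downstream start, chr4:89282193-89282442, minus strand: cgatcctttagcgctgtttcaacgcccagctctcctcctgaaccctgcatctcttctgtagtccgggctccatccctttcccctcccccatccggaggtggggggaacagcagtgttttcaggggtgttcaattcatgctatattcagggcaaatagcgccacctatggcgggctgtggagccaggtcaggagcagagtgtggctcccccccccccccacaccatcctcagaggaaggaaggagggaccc
Cdkn2a, upstream start, chr4:89294654-89294869, minus strand: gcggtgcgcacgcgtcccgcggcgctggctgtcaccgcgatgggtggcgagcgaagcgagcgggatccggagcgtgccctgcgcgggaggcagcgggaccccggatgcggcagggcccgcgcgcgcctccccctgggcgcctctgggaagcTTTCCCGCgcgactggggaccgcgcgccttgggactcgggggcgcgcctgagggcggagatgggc
The printed Cdkn1a window held a sequence that matches the named p53 response element motif with at most 1 letter off, beginning 51 bases upstream of its RefSeq start. The window of a downstream Cdkn1a start (chr17:29093519-29093768) is not printed and held no match to the motifs searched. A match of that closeness stood in 22 of 32851 windows of 300 bases around RefSeq starts (0.0670%). The window of the upstream Cdkn2a start held TTTCCCGC, 1 of the 4 E2F letterings searched on both strands (the others were TTTGGCGC, TTTGCCGC and TTTCGCGC), 99 bases upstream, and 744 of all windows (2.26%) held at least 1 of these. The Gli motif TGGGTGGTC, searched on both strands, was in none of the 9 windows and in 83 of all windows (0.253%). A match is a run of letters, not a measured site.

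The reads behind the libraries numbered 7693167 to 8870759, and a count of 3 reads, used as the floor of detection, corresponded to 6.76 to 7.80 normalized counts. Birc5 had 961 and 1103 normalized counts in the Krt14 controls at 6 weeks and 382 and 429 in LOF, so its transcripts were lower but present (log2 change -1.34, SE 0.28, adjusted p = 0.00429). GOF stood at 7277 and 16384 against 237 and 265 in its Inv controls (5.44, SE 0.28, adjusted p = 2.17e-06). Both LOF and both GOF libraries also had Xist, the RNA that silences an X chromosome in female cells, at 7589 to 59594 against 51 to 194 in the other 6 libraries. The Y-linked Ddx3y was present in all 10 libraries, at 2289 to 2909 in those other 6. It was lower in LOF (1336 and 956) and in GOF replicate 2 (970), and stood at 3328 in GOF replicate 1. Xist thus moved with Survivin genotype, and its part in the LOF and GOF comparisons cannot be told apart from that of Survivin in this design. With the log2 Xist level as a covariate, a fit chosen after seeing the data, limma called 3 of the 10 genes with LOF (Ccnd1 and Ccnd2 higher, Cdkn1a lower) and none with GOF against either control, where 3 and 4 had an unadjusted p under 0.05. In that fit 4.28% of all genes were called with LOF, and 0.182% (against Inv) and 0.918% (against Krt14) with GOF. Because Xist splits almost wholly by Survivin genotype, the covariate's slope rests on gaps between replicates, chiefly in GOF (7589 and 56185). It is then extended over the far wider gap between groups. Calls kept, lost or reversed in that fit therefore do not show whether a change depends on Xist. Of the called changes without the covariate, 5 had the opposite sign in it, and each is named with its gene below. Basal keratinocyte markers summed to between 179105 and 336480 in every library. Of these 6 genes, 3 were higher in Krt14 than in Inv at 8 weeks, and 2 fell in Krt14 from 6 to 8 weeks. With LOF 1 rose and 1 fell. In GOF 2 were above Inv, and 1 was above and 1 below Krt14. Markers of other cell types moved with the groups as well. All marker counts here are to be read against the shares of all genes called higher and lower. These were 19.5% and 11.4% with LOF, and 4.02% and 0.855% in Krt14 at 8 against 6 weeks. They were 8.18% and 11.4% in Krt14 against Inv. For GOF they were 6.87% and 8.40% against Inv, and 15.2% and 12.5% against Krt14. Fibroblast markers summed to 1300 and 2673 in Krt14 at 6 weeks and to 18817 and 19188 in LOF, with 2 of 6 higher. They summed to 1805 and 2441 in Krt14 at 8 weeks, 17944 and 19983 in Inv, and 37656 and 14803 in GOF, with 2 of 6 above Krt14 in Inv and 1 of 6 in GOF. Most of that sum was Dcn, at 1163 to 2235 in the Krt14 groups and 14512 to 37402 elsewhere, whereas Col1a1 stood at 75 to 218 in all libraries. Melanocyte markers summed to 901 and 942 in Krt14 at 6 weeks against 3016 and 3175 in LOF, with 7 of 8 higher. Their sums were 1374 and 1538 in Krt14 at 8 weeks (4 of 8 higher than at 6 weeks), 2407 and 2505 in Inv (4 of 8 above Krt14), and 1880 and 2075 in GOF (3 of 8 above Krt14). Sebocyte markers summed to 8045 and 8058 in Krt14 at 6 weeks, 9826 and 11709 in LOF (4 of 7 higher), and 10798 and 11713 in Krt14 at 8 weeks (6 of 7 higher than at 6 weeks). They reached 34106 and 37442 in Inv, where 7 of 7 exceeded Krt14, and 11527 and 11598 in GOF, where 6 of 7 fell against Inv. Suprabasal keratinocyte markers summed to 16697 and 24864 in Krt14 at 6 weeks, 12920 and 20849 in LOF (5 of 8 lower, 2 higher), and 45105 and 47927 in Krt14 at 8 weeks (2 of 8 higher than at 6 weeks). With 21113 and 21540 in Inv, 6 of 8 were higher in Krt14, and GOF (24066 and 35370) had 5 of 8 lower than Krt14. Endothelial markers summed to 121 to 290 in the libraries outside GOF, to 327 in GOF replicate 1 and to 1160 in GOF replicate 2 (3 of 5 above Krt14), with 1 of 5 at 0 in LOF. In Inv 2 of 5 were above Krt14 at 8 weeks, and with LOF 1 rose and 1 fell. Immune markers summed to 198 to 343 in all. Their part in the results was not tested, and in bulk RNA fewer cells of a type and less RNA per cell cannot be told apart.

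With Survivin LOF, 6 of the 10 genes changed, against 30.9% of all tested genes. Ccnd2, Cdkn1b and Cdkn1c rose, and Ccne1, Cdkn1a and Cdkn2b fell. Among all genes 19.5% rose and 11.4% fell. The median log2 change of the 10 was -0.28, and that of all genes 0.16. After median-of-ratios rescaling the median of all genes was 0.02, the share of rises among called genes went from 63.1% to 49.0%, and the same 6 genes were called. Each change below is a difference of log2 values, given with its standard error (SE) and called by limma at an adjusted p of 0.05.

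With Survivin GOF, 3 of the 10 genes fell against the Inv controls and none rose. They were Ccne1, Ccne2 and Cdkn2a, and 15.3% of all tested genes were called (8.40% lower). The median change was -0.69 for the 10 genes and -0.01 for all genes. Against Krt14 at 8 weeks, where the Cre driver differs too, Ccnd1, Ccne1, Ccne2 and Cdkn2a fell, 4 of 10 against 27.7% of all genes (12.5% lower), with a median of -0.65 and 0.09 for all genes. The 2 GOF comparisons share the GOF libraries and are not independent.

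Between the Krt14 and Inv drivers at 8 weeks none of the 10 genes was called by limma, against 19.6% of all genes (8.18% higher and 11.4% lower in Krt14), although 3 had an unadjusted p under 0.05 (Cdkn1a, Cdkn1c and Cdkn2a). Between Krt14 at 8 and at 6 weeks none was called either, against 4.88% of all genes (4.02% higher and 0.855% lower at 8 weeks), and 3 had an unadjusted p under 0.05 (Ccnd2, Ccnd3 and Cdkn2a). A limma-voom fit on reads recovered from the values called 1 gene, Cdkn2a, in each of these comparisons. It called 21.1% of all genes between the drivers and 3.19% between the weeks. A fit to only the Krt14 and Inv libraries at 8 weeks called 4 (Ccnd1, Ccnd2, Cdkn1a and Cdkn2a), and 26.1% of all genes.

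**Figure D1:**
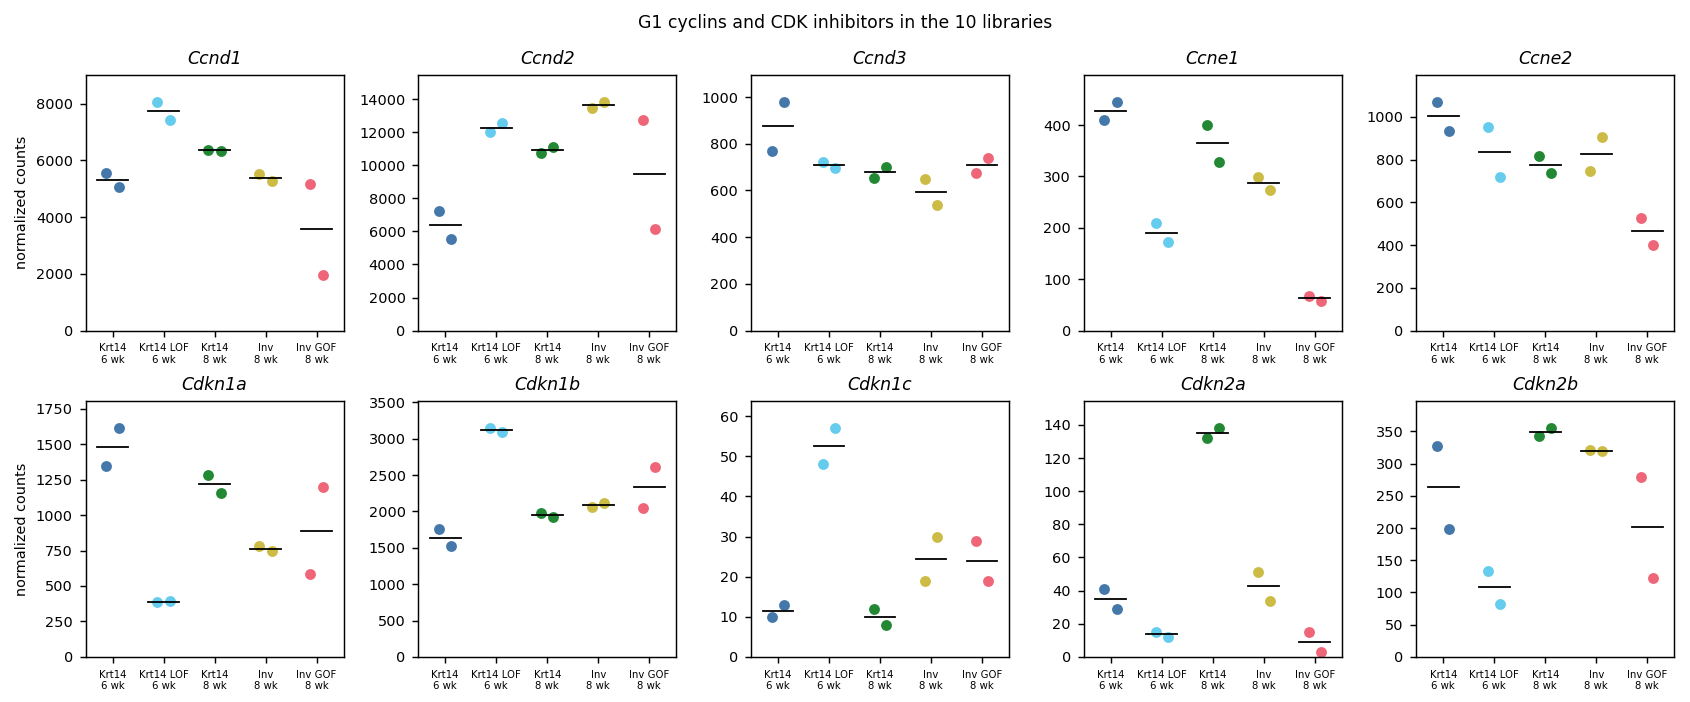
Normalized counts of the 10 genes by group, on linear axes that start at 0, with 1 point per library and a bar at the mean of the 2 libraries. Ccne1 is lowest in both GOF libraries (68 and 58), Cdkn1a in both LOF libraries (385 and 393), and Cdkn2a is highest in Krt14 at 8 weeks (132 and 138).

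**Figure D2:**
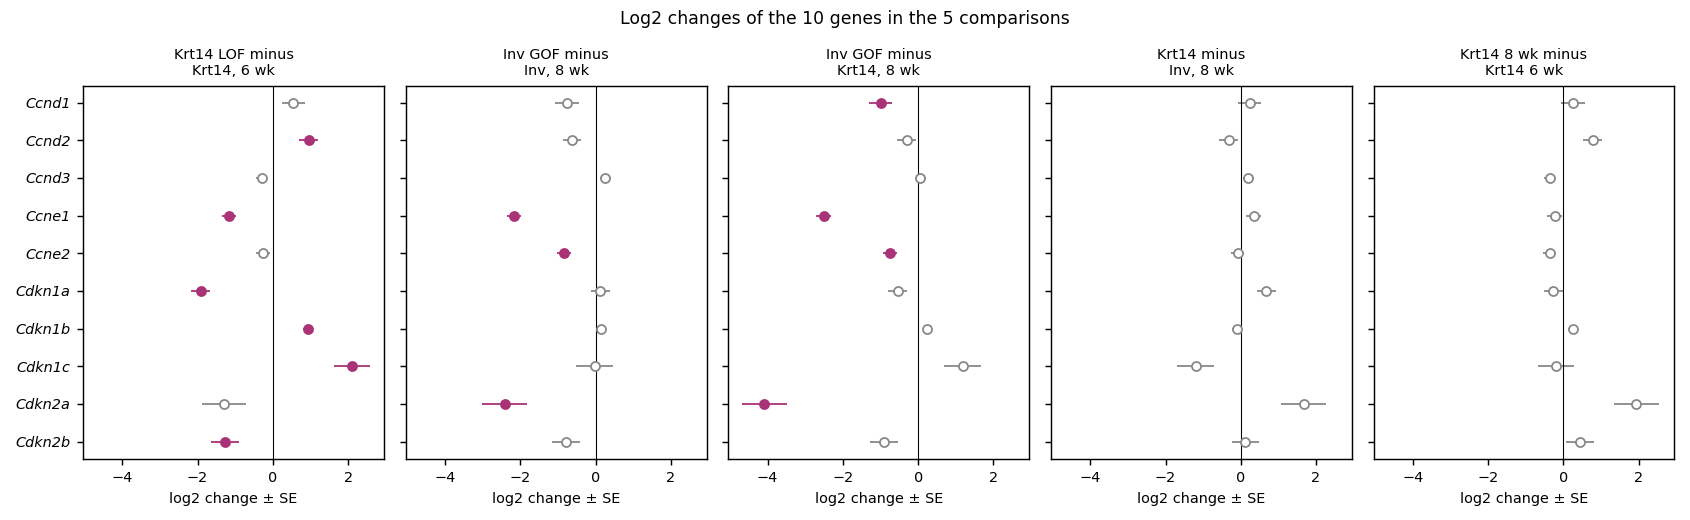
Log2 change with its SE for each gene in the 5 comparisons, with called changes as filled points and the rest open. LOF has calls in both directions, and every call in the GOF comparisons is a fall.

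Among the D cyclins, Ccnd2 rose with LOF, Ccnd1 did not pass in that comparison, and Ccnd3 passed in none. Ccnd1 (cyclin D1, ENSMUSG00000070348) lies on chromosome 7, 144929931 to 144939925, minus strand. Its normalized counts were 5568 and 5065 in Krt14 at 6 weeks and 8060 and 7441 in LOF. The groups did not overlap, but the change did not pass (0.54, SE 0.31, adjusted p = 0.218). A fit to those groups alone called it (adjusted p = 0.0261). Krt14 at 8 weeks gave 6374 and 6327 and Inv gave 5525 and 5266, both close between replicates. GOF gave 5180 and 1953, so that replicate 1 was near its controls and replicate 2 far below every other library. The fall against Krt14 at 8 weeks (-0.997, SE 0.31, adjusted p = 0.0358) was lost without either Krt14 library (adjusted p = 0.145 without replicate 1 and 0.138 without replicate 2). Its size rested on GOF replicate 2: the change was -0.29 without that library and -1.70 without GOF replicate 1. With the Xist covariate it was 1.86 (adjusted p = 0.186). Without GOF replicate 1, the change against Inv was -1.47. By mean level LOF came first, then Krt14 at 8 weeks, and Inv, Krt14 at 6 weeks and GOF overlapped their neighbours in the order.

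Ccnd2 (cyclin D2, ENSMUSG00000000184, chromosome 6, 127125162 to 127152193, minus strand) was measured at 7264 and 5560 in Krt14 at 6 weeks. LOF gave 12010 and 12545, 1.93-fold higher (0.95, SE 0.25, adjusted p = 0.0152). Both LOF libraries exceeded both controls, but the call was lost without Krt14 replicate 2 (0.76), LOF replicate 1 (0.98) or LOF replicate 2 (0.92). Krt14 at 8 weeks gave 10723 and 11124, above both libraries at 6 weeks, a difference that did not pass (0.78, SE 0.25, adjusted p = 0.101). Inv gave 13499 and 13837, the highest of the 5 groups and clear of the next, LOF. GOF gave 12744 and 6162, again a high replicate 1 and a low replicate 2, and did not pass against Inv (-0.62, SE 0.25, adjusted p = 0.121). Without GOF replicate 1 the change was -1.15 against Inv and -0.83 against Krt14. Ccnd1 and Ccnd2 were thus low together in the same GOF library.

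Ccnd3 (cyclin D3, ENSMUSG00000034165, chromosome 17, 47505051 to 47599691, plus strand) varied least of the D cyclins. It stood at 770 and 979 in Krt14 at 6 weeks, 721 and 695 in LOF, and 653 and 702 in Krt14 at 8 weeks. Inv gave 647 and 536 and GOF 676 and 739. Its changes lay between -0.36 (Krt14 at 8 against 6 weeks, adjusted p = 0.190) and 0.26 (GOF against Inv, adjusted p = 0.274).

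Levels of different genes were compared per kilobase of annotated exon. On that scale the D cyclins together stood at 1778 to 2042 in Krt14 at 6 weeks and at 2993 to 3070 in LOF, without overlap. They stood at 2568 to 2606 in Krt14 at 8 weeks, 2650 to 2682 in Inv, and 1154 and 2532 in the GOF libraries. The share of Ccnd1 in that sum was 57.9% to 60.5% in Krt14 at 6 weeks, 52.8% to 55.7% in LOF and 51.6% to 52.7% in Krt14 at 8 weeks. With the Inv driver it was 42.2% to 43.8%, and 35.9% to 43.5% in GOF. On that scale Ccnd1 made up the larger share in the Krt14 and LOF libraries and Ccnd2 in the Inv and GOF libraries, while Ccnd3 stayed at 2.31% to 7.30%. In normalized counts Ccnd2 exceeded Ccnd1 in every library. Which gene leads thus depends on the exon lengths used (4709 bases for Ccnd1, 9409 for Ccnd2 and 8775 for Ccnd3). Such a length joins all annotated exons of a gene and need not be that of the transcripts present. These shares are descriptions and were not tested.

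Genes on the opposite strand share exon bases with several of the 10 genes, and no source used here gives the strand setting of the counting, so reads of such partners cannot be told apart. Ccnd1 shares 1100 exon bases with Oraov1 (LTO1 in the annotation), whose values ran from 1017 to 3328 and fell and rose with those of Ccnd1. Ccnd2 shares 372 with Gm43126, which stood at 403 to 980. Ccnd3 shares 361 with Bysl, Ccne2 609 with Ints8, Cdkn1a 273 with AC167363.2 and Cdkn1c 625 with Gm44732.

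**Figure D3:**
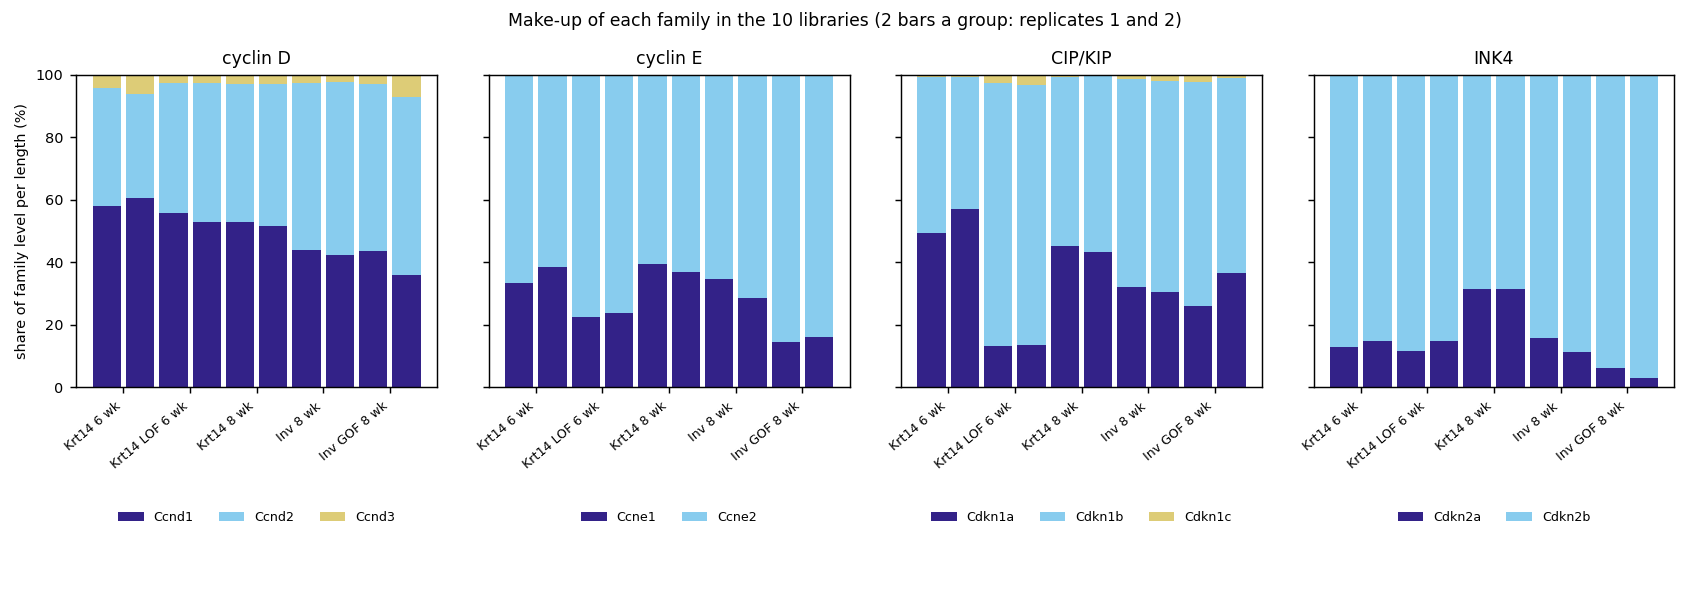
Share of each gene in its family's summed level per kilobase of exon, in percent, for the D cyclins, E cyclins, CIP/KIP and INK4 inhibitors in each library. The Cdkn1a share of the CIP/KIP sum is 13.2% to 13.5% in LOF against 49.2% to 57.1% in its controls.

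Of the E cyclins, Ccne1 fell with LOF and, further, with GOF, and Ccne2 fell with GOF. Ccne1 (cyclin E1, ENSMUSG00000002068), whose upstream window is printed above, lies on chromosome 7, 38097984 to 38107534, minus strand. It was measured at 409 and 445 in Krt14 at 6 weeks and at 209 and 172 in LOF (means 427 ± 25.5 and 190.5 ± 26.2, SD, n = 2). This was a 2.24-fold lower level (-1.17, SE 0.19, adjusted p = 0.00118). The 8-week Krt14 libraries gave 401 and 329 and Inv 299 and 274. GOF gave 68 and 58, the lowest of all libraries. Against Inv the level was 4.50-fold lower (-2.17, SE 0.19, adjusted p = 6.26e-05) and against Krt14 at 8 weeks 5.71-fold lower (-2.51, SE 0.19, adjusted p = 1.32e-05). All 5 groups were free of overlap, in the order Krt14 at 6 weeks, Krt14 at 8 weeks, Inv, LOF, GOF. The neighbouring Krt14 and Inv groups at 8 weeks did not differ by the test (0.34, SE 0.19, adjusted p = 0.252). All 3 Ccne1 calls held in every setting run, each library left out in turn included, except with the Xist covariate, where none of the 3 passed (adjusted p = 0.949 in LOF, 0.385 against Inv and 0.251 against Krt14).

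Ccne2 (cyclin E2, ENSMUSG00000028212, chromosome 4, 11191351 to 11204779, plus strand) stood at 1070 and 935 in Krt14 at 6 weeks and at 954 and 720 in LOF. These overlapped, and the change did not pass (-0.27, SE 0.18, adjusted p = 0.289). At 8 weeks Krt14 gave 815 and 737, Inv 747 and 906 and GOF 529 and 401. GOF lay below every other library, 1.78-fold under Inv (-0.84, SE 0.18, adjusted p = 0.0114) and 1.68-fold under Krt14 (-0.75, SE 0.18, adjusted p = 0.0106). The call against Inv was lost without Inv replicate 2 (-0.70, adjusted p = 0.122) or GOF replicate 2 (-0.64, adjusted p = 0.0594). The call against Krt14 was lost without Krt14 replicate 1 (-0.68, adjusted p = 0.0861) or GOF replicate 2 (-0.55, adjusted p = 0.0552). With the Xist covariate both changes had the opposite sign, at 0.20 against Inv (adjusted p = 0.929) and 0.45 against Krt14 (adjusted p = 0.742).

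Per kilobase of exon, Ccne2 exceeded Ccne1 in all 10 libraries. The ratio of Ccne2 to Ccne1 was 1.99 and 1.60 in Krt14 at 6 weeks, 3.48 and 3.19 in LOF, 1.55 and 1.71 in Krt14 at 8 weeks, 1.90 and 2.52 in Inv, and 5.93 and 5.27 in GOF. The summed E cyclin level was 435 to 460, 271 to 351, 334 to 384, 326 to 362 and 137 to 177 in those groups, so GOF was lowest and LOF, with 1 library inside the range of Krt14 and Inv at 8 weeks, came next.

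The CIP/KIP genes split with LOF: Cdkn1a fell, and Cdkn1b and Cdkn1c rose. Cdkn1a encodes p21, a CDK inhibitor induced by p53 among other factors (ENSMUSG00000023067, chromosome 17, 29090976 to 29100727, plus strand, window printed above). It was measured at 1345 and 1612 in Krt14 at 6 weeks and at 385 and 393 in LOF (means 1478.5 ± 189 and 389 ± 5.66, SD, n = 2). LOF was lowest of the 5 groups and 3.78-fold below its controls (-1.92, SE 0.25, adjusted p = 0.000291), a call that held without any single library. The limma fit with the Xist covariate, under the limit given above, put the change at -4.07 (SE 0.73, adjusted p = 0.0155). Krt14 at 8 weeks gave 1284 and 1156 and Inv 781 and 743. These did not overlap, but the difference did not pass (0.68, SE 0.25, adjusted p = 0.0894). GOF gave 582 and 1196, on either side of Inv, with a change of 0.13 (SE 0.25, adjusted p = 0.787). Its direction depended on the library: without GOF replicate 2 the change against Inv was -0.39, and without GOF replicate 1 it was 0.65. Against Krt14 at 8 weeks the change did not pass (-0.55, adjusted p = 0.138), and was -1.06 without GOF replicate 2.

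Cdkn1b encodes p27, which restrains cyclin E-CDK2 and also takes part in assembling cyclin D-CDK complexes (ENSMUSG00000003031, chromosome 6, 134920401 to 134925513, plus strand). It stood at 1756 and 1524 in Krt14 at 6 weeks and at 3145 and 3096 in LOF. The LOF libraries were the highest of all and 1.91-fold above their controls (0.93, SE 0.12, adjusted p = 0.000288), also without any single library, though not with the Xist covariate (adjusted p = 0.951). Krt14 at 8 weeks gave 1978 and 1926, Inv 2064 and 2116, and GOF 2047 and 2616. GOF overlapped Inv and did not pass (0.15, SE 0.12, adjusted p = 0.476). Without GOF replicate 2 that change was -0.03, and without GOF replicate 1 it was 0.32.

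Cdkn1c encodes p57, a CIP/KIP inhibitor from an imprinted locus (ENSMUSG00000037664, chromosome 7, 143458339 to 143461050, minus strand), and was the scarcest of the 3. It stood at 10 and 13 in Krt14 at 6 weeks, from 4 and 5 reads, and at 48 and 57 in LOF, from 19 and 25 reads. The pooled reads gave a 4.65-fold higher level in LOF (95% exact interval 2.24 to 10.8, counting error only), and the model gave 2.10 (SE 0.48, adjusted p = 0.00738). The call was lost without LOF replicate 2 (1.98, adjusted p = 0.0571) and with the Xist covariate (4.18, adjusted p = 0.252). In Krt14 at 8 weeks it stood at 12 and 8, in Inv at 19 and 30 and in GOF at 29 and 19, so GOF and Inv overlapped and the Krt14 groups lay lowest. Inv exceeded Krt14 at 8 weeks without passing (-1.20 for Krt14 against Inv, SE 0.48, adjusted p = 0.109). By pooled reads, Krt14 stood at 0.41 of the Inv level (interval 0.16 to 0.96). GOF stood 2.45-fold above Krt14 (interval 1.02 to 6.46), also without passing in the model. The intervals for GOF against Inv and for Krt14 at 8 against 6 weeks included no change.

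Per kilobase, Cdkn1b over Cdkn1a was 1.02 and 0.738 in Krt14 at 6 weeks and 6.38 and 6.15 in LOF. It was 1.20 and 1.30 in Krt14 at 8 weeks, 2.06 and 2.22 in Inv, and 2.75 and 1.71 in GOF. The summed CIP/KIP level moved much less, at 769 to 795 in Krt14 at 6 weeks and 819 to 823 in LOF, so the makeup of the family differed between these groups more than its total.

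Of the INK4 genes, Cdkn2b fell with LOF and Cdkn2a with GOF. The row of Cdkn2a (ENSMUSG00000044303, chromosome 4, 89274471 to 89294653, minus strand) sums transcripts of p16Ink4a, which binds CDK4 and CDK6, and p19Arf, which acts on the p53 pathway through MDM2, so their parts are not separable here. It stood at 41 and 29 in Krt14 at 6 weeks and at 132 and 138 in Krt14 at 8 weeks, the highest group (means 35 ± 8.49 and 135 ± 4.24, SD, n = 2). The groups did not overlap, and the pooled reads (28 and 111) gave a 3.88-fold higher level at 8 weeks (95% exact interval 2.54 to 6.09, counting error only). The model's change did not pass (1.94, SE 0.59, adjusted p = 0.0879), whereas voom on the recovered reads called it (adjusted p = 0.0195), as did a pseudocount of 5 (adjusted p = 0.0399). Inv gave 51 and 34, and the Krt14 driver at 8 weeks exceeded it 3.21-fold by pooled reads (interval 2.20 to 4.79). This too did not pass (1.67, SE 0.59, adjusted p = 0.0730), but did with voom (adjusted p = 0.00502) and at the edge with the replicate block (adjusted p = 0.0499).

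Cdkn2a was lowest in GOF, at 15 and 3 (6 reads and 1 read), the second library below the floor of 3 reads. Pooled reads placed Inv 4.80-fold above GOF (interval 2.11 to 12.7) and Krt14 at 8 weeks 15.4-fold above it (interval 7.23 to 39.2). The model called both falls (-2.41, SE 0.59, adjusted p = 0.0200, and -4.09, SE 0.59, adjusted p = 0.000594), with sizes that depend on the pseudocount at so few reads. The call against Inv was lost without either Inv library or GOF replicate 2 (-1.41, adjusted p = 0.0894, for the last). With the Xist covariate the change was 0.87 against Inv (adjusted p = 0.909) and -0.28 against Krt14 (adjusted p = 0.963). LOF stood at 15 and 12, below both controls, and did not pass (-1.30, SE 0.59, adjusted p = 0.122). Its pooled reads (11 against 28) placed the controls 2.68-fold above LOF (interval 1.29 to 5.96, counting error only).

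Cdkn2b encodes p15Ink4b, an inhibitor of CDK4 and CDK6 known for its induction by TGF-beta, and lies beside Cdkn2a (ENSMUSG00000073802, chromosome 4, 89306299 to 89311039, minus strand). It stood at 328 and 199 in Krt14 at 6 weeks and at 134 and 82 in LOF. LOF was lowest and 2.42-fold below its controls (-1.28, SE 0.37, adjusted p = 0.0226), a call lost without Krt14 replicate 1 (-0.92, adjusted p = 0.161) or LOF replicate 2 (-0.93, adjusted p = 0.180). With the Xist covariate the change was 1.54 (adjusted p = 0.512). The 8-week Krt14 libraries gave 343 and 355 and Inv 321 and 319, close both within and between groups. GOF gave 279 and 123 and did not pass against Inv (-0.78, SE 0.37, adjusted p = 0.182). Without GOF replicate 1 that change was -1.37. Per kilobase, Cdkn2a made up 31.3% to 31.6% of the INK4 pair in Krt14 at 8 weeks, 11.2% to 15.9% in Krt14 at 6 weeks, LOF and Inv, and 2.81% to 5.99% in GOF.

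The 2 GOF libraries differed more from each other than the libraries of any other group did. The larger replicate of a gene exceeded the smaller by a median of 1.79-fold over the 10 genes in GOF (highest for Cdkn2a), against medians of 1.06-fold to 1.23-fold in the other 4 groups. Set against the Inv mean, replicate 1 had Ccnd1 at -0.06, Ccnd2 at -0.10 and Cdkn2b at -0.20 on the log2 scale, and replicate 2 had them at -1.47, -1.15 and -1.37. Ccne1 was the member with a fall of nearly the same size in both, at -2.06 and -2.28. Birc5 (7277 against 16384), Xist (7589 against 56185), Ddx3y (3328 against 970) and the endothelial marker sum (327 against 1160) differed between the same libraries, and their part in the spread was not tested. A fit without 1 GOF library leaves 1 library in that group, and the spread then comes from the other groups alone. The gap between the GOF libraries no longer enters it, so a change that passes only there is a difference of 1 library. More of the 10 genes were called without GOF replicate 1 than without GOF replicate 2, against either control. The share of all genes called moved the same way.

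**Figure D4:**
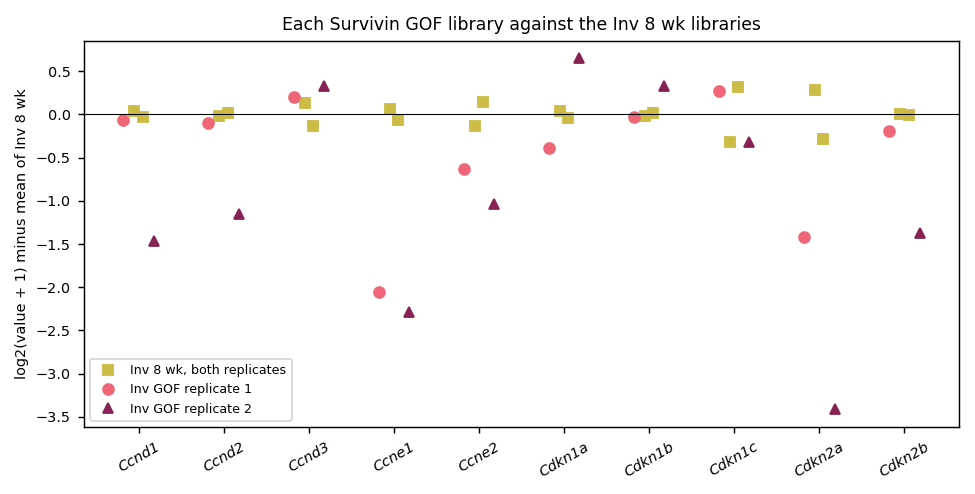
Log2 difference of each GOF library from the mean of the Inv libraries for the 10 genes (circles for replicate 1, triangles for replicate 2), with the Inv libraries themselves as squares. The points of Ccne1 lie together at -2.06 and -2.28, while those of Ccnd1 (-0.06 and -1.47) and Cdkn2a (-1.41 and -3.41) lie apart.

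The other genes of the pathway were taken as 44 genes in 6 lists: CDKs and their partners, the remaining INK4 genes, pocket proteins, E2F and DP factors, turnover of cyclins and inhibitors, and upstream regulators. With LOF, 7 rose, 6 fell and 31 did not pass, a called share to be read against 30.9% of all genes. With GOF against Inv, 4 rose, 15 fell and 25 did not pass, against 6.87% of all genes higher and 8.40% lower, with a median of -0.29. More were called without GOF replicate 1, and fewer without GOF replicate 2 or either Inv library. The share of all genes called moved the same way each time. A fit to only the GOF and Inv libraries called none of the 44 (17 had an unadjusted p under 0.05) and 1.17% of all genes. With GOF against Krt14 at 8 weeks, 5 rose and 16 fell, against 15.2% of all genes higher and 12.5% lower. A fit to only those groups called 3 higher and 10 lower, and 12.1% of all genes. Between the drivers 6 were higher and 5 lower in Krt14, against 8.18% and 11.4% of all genes. Fewer were called without any 1 of the 4 libraries, where the share of all genes called was smaller too. A fit to those groups alone called 9 higher and 10 lower, and 26.1% of all genes. Between Krt14 at 8 and 6 weeks none of the 44 was called by limma, against 4.88% of all genes, and 4 had an unadjusted p under 0.05. There voom called none, against 3.19% of all genes. With the Xist covariate 2 rose and 2 fell with LOF, where 4.28% of all genes were called. None was called with GOF against Inv (0.182% of all genes) or Krt14 (0.918%), where 5 and 7 had an unadjusted p under 0.05.

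E2F and DP factors, which bind promoters of S phase genes as dimers, were the list with the most falls in GOF, 6 of 10 against Inv with 1 rise, where 8.40% of all genes fell and 6.87% rose. E2f1, an activating E2F, stood at 145 and 125 in GOF and at 412 and 378 in Inv (-1.54, SE 0.16). E2f2 fell by 0.78, E2f3 by 0.75, E2f7 by 1.07, E2f8 by 0.75 and Tfdp1 by 0.70 on the log2 scale. Tfdp2, a DP partner, stood at 5387 and 7612 against 3329 and 3356 and rose (0.94). The same number of falls was called without either GOF library, where the spread came from the other groups alone. Fewer were called without either Inv library, where the share of all genes called was smaller too. A fit to only the GOF and Inv libraries called none of the 10 (7 had an unadjusted p under 0.05) and 1.17% of all genes. With the Xist covariate none was called either (1 had such a p), and 0.182% of all genes were. Against Krt14 at 8 weeks 7 of the 10 fell, where 12.5% of all genes did. A fit to only those groups called 4 falls, and 12.1% of all genes in either direction. E2f2, at 111 and 99 against 338 and 365, was furthest (-1.73, SE 0.18). In LOF, E2f2 (-0.63), E2f4 (-0.65) and E2f8 (-1.01) fell, Tfdp2 rose (1.01), and E2f1 stood at 459 and 400 against 368 and 336 without a call.

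Among the CDK genes, Cdk4, the partner of the D cyclins, stood at 2162 and 1420 in GOF against 3905 and 3615 in Inv and fell (-1.10). Ccna2, the S phase cyclin A2, fell in GOF against Inv (-0.68) and in LOF (-0.58). Rbl2, the pocket protein p130 of resting cells, rose in LOF (1923 and 2154 against 1082 and 907, 1.04) and in GOF against Inv (1982 and 2387 against 1263 and 1394, 0.71). Skp2, the ubiquitin ligase subunit that marks p27 for degradation, fell in GOF against Inv (-0.72), and its cofactor Cks1b fell in LOF (-0.79) and in GOF (-0.42). Of the remaining INK4 genes, Cdkn2d was higher in Krt14 than in Inv at 8 weeks (195 and 248 against 117 and 73, 1.24, SE 0.31).

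Of the upstream regulators, Myc and Mycn moved in opposite directions with LOF. Myc, a regulator of growth that represses Cdkn1a and Cdkn2b in other settings, stood at 835 and 871 against 2265 and 2423 (-1.46), and Mycn at 4797 and 4683 against 2086 and 1237 (1.56, SE 0.43). In GOF, Myc rose against Inv (0.97), with 972 and 2335 against 799 and 737, so most of the rise was in replicate 2. Mycn stood at 2814 and 819 in GOF and at 3786 and 3448 in Inv, lowest in the same replicate. Trp53, which encodes p53, fell in GOF, at 1037 and 692 against 2103 and 1879 (-1.23).

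Of 16 further p53 target genes, 15 passed the filter, and these did not move one way. With LOF 3 rose and 4 fell, where 19.5% of all genes rose and 11.4% fell. Bbc3, an apoptosis gene, was at 112 and 102 against 34 and 29 (1.74, SE 0.27) and Trp53inp1 rose (1.61, SE 0.21), whereas Pmaip1 was at 87 and 59 against 227 and 236 (-1.68, SE 0.24). With GOF against Inv 4 rose and 1 fell (6.87% and 8.40% of all genes), among them Sesn1 (1787 and 5462 against 863 and 892, 1.83, SE 0.38), Btg2 (1.38, SE 0.36) and Pmaip1 (1.32, SE 0.24). A fit to only those groups called none of the 15 (6 had an unadjusted p under 0.05) and 1.17% of all genes. Fewer were called without either Inv library, where the share of all genes called was smaller too. Against Krt14 at 8 weeks 2 rose and 7 fell (15.2% and 12.5% of all genes), and 1 and 2 did in a fit to only those groups, which called 12.1% of all genes. Sesn1 (2.14) and Trp53inp1 (1.80) rose there and Plk2 fell (-1.59). Between the drivers 4 were higher and 1 lower in Krt14 (8.18% and 11.4% of all genes), including Plk2 (1.45), Btg2 (1.16) and Phlda3 (1.08). From 6 to 8 weeks Bbc3 rose (1.53) and Phlda3 fell (-0.88), against 4.02% of all genes higher and 0.855% lower.

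A set of 6 genes of cycling cells gives the context of these levels. Mki67, a marker of cycling cells, stood at 24228 and 21357 in Krt14 at 6 weeks, 14705 and 15963 in LOF, 28423 and 24565 in Krt14 at 8 weeks, 20220 and 22158 in Inv, and 13271 and 10602 in GOF. LOF and GOF lay below all libraries of the other groups. Of Mki67, Pcna, Mcm2, Top2a, Ccnb1 and Cdk1, 4 fell with LOF (11.4% of all genes), 4 with GOF against Inv (8.40%) and 6 with GOF against Krt14 (12.5%), and 3 were higher in Krt14 than in Inv at 8 weeks (8.18%). A fit to only the GOF and Inv libraries called 1 of the 6 and 1.17% of all genes. With the Xist covariate none of the 6 was called with LOF (4.28% of all genes) or with GOF against Inv (0.182%) or Krt14 (0.918%). There 2 (LOF), 1 (against Inv) and 3 (against Krt14) had an unadjusted p under 0.05.

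**Figure D5:**
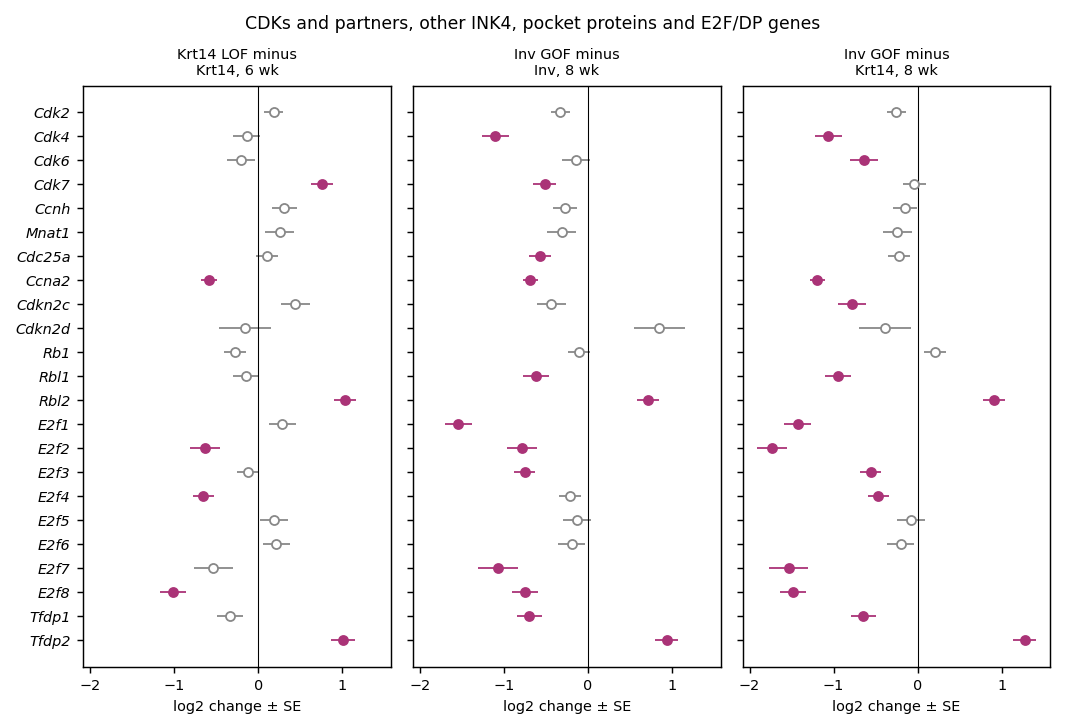
Log2 change with its SE for the CDKs and partners, the remaining INK4 genes, the pocket proteins and the E2F and DP genes in the LOF comparison and both GOF comparisons, with called genes as filled points. In GOF against Inv 6 of the 10 E2F and DP genes are called lower, E2f1 furthest at -1.54, and Tfdp2 and Rbl2 are called higher.

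Likeness across the 10 libraries was measured as Pearson's r of log2(value + 1) over 11928 genes with a mean of at least 50, for the 8 members that reached that mean. The points share groups, and r is given as a description. Ccnd1 was most like Oraov1 (0.99), the overlapping gene named above, then Evc2 (0.99), which encodes a protein of the primary cilium, and Tst (0.97). Ccne1 was most like Hist1h2bm, Tmsb10 and Tuba1a (each 0.99). Ccnd2 was most like Dsg1c (0.97), Scfd2 (0.97) and Smarcad1 (0.96), and Ccne2 most like Fignl1 (0.98). Cdkn1a was led by Yars (0.98), which encodes a tRNA synthetase, Cdkn1b by Litaf (0.96), Cdkn2b by Psma3 (0.95) and Ccnd3 by Dusp3 (0.93).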

How the data were processed

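Expression was measured by RNA sequencing of polyA RNA in 10 libraries, 2 for each of 5 groups, assigned from genotype and week in the sample titles. STAR, HTSeq and the build GRCm38 (mm10) are named in the submitters' processing notes; no source used here gives versions, annotation release, strand setting or scaling. The values the authors deposited are a normalized count, treated as a score: columns sum to 20011195 to 20014054, and 99.3% to 99.9% of values below 20000 equal a whole number of reads times a step of 2.25 to 2.60 per library, rounded up. Reads recovered this way numbered 7693167 to 8870759 per library. All 10 sample columns were used, and 0 others carried samples. Intervals and floors cover counting error only.

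After adding 1, log2 values of the 21995 genes that reached 10 in 2 or more libraries were fitted over all 5 groups with limma 3.58.1 in R 4.3.3 (group terms, eBayes with an intensity trend, 5 residual degrees of freedom, median 5.91 prior degrees of freedom). For low genes, fold changes on this scale depend on the added 1 and can differ from those of pooled reads. Tests were two-sided, with Benjamini-Hochberg adjustment over all tested genes in each of the 5 comparisons and calls at 0.05. An exact permutation test of 2 libraries against 2 cannot go below 0.333. The fit was tested on simulated data in which a gene had the same spread in every group. That setting does not cover the wider gap between the GOF libraries.

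Gene positions and exon lengths came from GENCODE M21, which held 49412 of 49671 gene IDs, and sequences from RefSeq (GRCm38.p6). All 10 members were named in every comparison. Of the pathway and p53 target genes the rule named the 4 called genes with the largest change per comparison among those with a mean of at least 50, and others were named after their values were seen. For likeness the rule took the 3 genes with the highest r. The members, lists and rules were chosen with earlier results of these data known. Alternatives were pseudocounts of 0.5 and 5, no filter or a filter of 50, median-of-ratios and quantile scaling, only the groups compared, a replicate block, each library left out, limma-voom on recovered reads, and a covariate for Xist chosen after seeing the data.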

Additional observations from a re-analysis of the deposited data

How the results depend on the processing

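With 2 libraries a group, single libraries decide several calls, and this holds for all genes too. A fit without 1 library leaves 1 in its group, and the spread then comes from the other groups alone. Where leaving out a library lowered or raised the number of the 10 genes called, the share of all genes called moved the same way. The number of the 10 genes called, each library left out in turn, ranged from 3 to 5 for LOF (6 with all libraries), 1 to 8 for GOF against Inv (3), 2 to 7 for GOF against Krt14 (4), and 0 to 0 for both Krt14 against Inv and Krt14 at 8 against 6 weeks. With no filter, 2 of the 10 genes rose and 2 fell with LOF, where 17.6% of all genes were called. There 2 fell in GOF against Inv (7.66% of all genes) and 3 in GOF against Krt14 (16.7%). A fit to only the groups compared called 4 higher and 2 lower for LOF (24.5% of all genes). It called 1 for GOF against Inv, where 1.17% of all genes were called. It called 4 for Krt14 against Inv (26.1% of all genes) and 2 for GOF against Krt14 (12.1%). Krt14 against Inv had 1 call, Cdkn2a, with a pseudocount of 5, median-of-ratios rescaling, quantile normalization or voom on recovered reads. In those fits 19.8% to 21.1% of all genes were called. Krt14 at 8 against 6 weeks had 1, also Cdkn2a, with a pseudocount of 5 (5.07% of all genes) or voom (3.19%). The Xist covariate left 3 calls for LOF (2 of them among the 6), where 4.28% of all genes were called. It left 0 for GOF against Inv (0.182% of all genes) and 0 for GOF against Krt14 (0.918%). For Krt14 against Inv there was 1 (23.4%), and for Krt14 at 8 against 6 weeks 2 (8.09%). Xist is high in the LOF and GOF libraries and low in the rest, and 20 of the 50 single changes had another sign with it, 5 of them called without it; the cause was not tested.

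The replicate block gave 6, 3, 1, 0 and 5 calls (LOF, GOF against Inv, Krt14 against Inv, Krt14 at 8 against 6 weeks, GOF against Krt14), adding Cdkn2a between the drivers and Cdkn2b in GOF against Krt14. In the same order it called 30.5%, 15.5%, 19.3%, 4.49% and 27.5% of all genes. Same-numbered libraries did not deviate together (correlations from -0.05 to 0.04 over 10 pairs of groups), so the replicate number was not taken to mark pairs. Other links between libraries were not tested.

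Apart from the covariate, single changes reversed 11 times, none of a called gene. Leaving out a GOF library, the change against Inv ranged from -0.39 to 0.65 for Cdkn1a and from -0.030 to 0.32 for Cdkn1b, and that against Krt14 from -0.83 to 0.22 for Ccnd2 and from -0.0023 to 0.13 for Ccnd3. Leaving out any library, Cdkn1c ranged from -0.34 to 0.29 in GOF against Inv (0.27 without GOF replicate 2) and from -0.46 to 0.067 in Krt14 at 8 against 6 weeks, and Ccne2 from -0.23 to 0.053 between the drivers. After median-of-ratios rescaling Ccne2 was at 0.0043 between the drivers and Ccnd3 at -0.010 in GOF against Krt14, and with voom Cdkn1c was at 0.0047 in GOF against Inv. Over all other settings, 588 values of single changes kept their direction and side of the threshold, 22 newly passed and 24 no longer passed. Depth limits Cdkn1c and Cdkn2a, which rest on 1 to 57 reads a library. With a filter of 50, Cdkn1c was not tested.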
